A study of Homo sapiens with 9 samples.

Results

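Secreted ligands and inhibitors of blood vessel growth were followed across parental RKO cells and RKO clones with a targeted DIP2C gene. The 9 genes, out of 23619 gene symbols in the files, were looked up by symbol: VEGFA, VEGFB, VEGFC, PGF, ANGPTL4, ANGPT1, ANGPT2, THBS1 and THBS2. RKO is a human colorectal cancer cell line. RNA was sequenced from 2 parental samples with both DIP2C alleles intact, 2 DIP2C-/- clones (E3 and C10) with both alleles targeted, and 5 DIP2C+/- clones (A6-C9, A9-A12, F6-A7, G1-A5 and H9-A4) with 1 allele targeted. The study describes 3 such heterozygous clones, and which of the 5 labelled here they are, or how the remaining ones arose, is not given in the sources used here; each is taken as a separate clone, as labelled. No agent was added, and each sample was grown for 48 h and sequenced as 1 library. Targeting used a recombinant adeno-associated virus to delete part of DIP2C exon 9, followed by Geneticin selection, cloning from single cells and removal of the selection cassette with Cre. Each knockout line was therefore 1 clone, both DIP2C-/- clones came from a single DIP2C+/- clone, and no clone that went through selection with DIP2C intact was measured here. A difference between the clones and the parental samples thus cannot be told apart from an effect of cloning and selection.

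The members act on vessels through a small set of receptors. VEGFA is the main signal for endothelial cells to divide and migrate, through the receptors FLT1 and KDR, while VEGFB and placental growth factor (PGF) bind FLT1, and VEGFC acts mainly on lymphatic vessels through FLT4. The neuropilins NRP1 and NRP2 are co-receptors that strengthen VEGF signals. ANGPT1 activates the endothelial receptor TEK and stabilises vessels, and ANGPT2 mostly blocks it. ANGPTL4 resembles the angiopoietins in sequence but is best known as a secreted inhibitor of lipoprotein lipase, induced by low oxygen and by fatty acids through PPAR receptors, with both promoting and inhibiting effects on vessels described. THBS1 and THBS2 are matrix glycoproteins that restrain endothelial cells, in part through CD36 and CD47. Tumour cells secrete many of these proteins, whereas the receptors sit mostly on endothelium.

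ANGPTL4 was the member that differed most between samples, and among the members that passed the filter on low counts PGF and VEGFA were the others for which 6 of the 7 knockout clones lay on 1 side of both parental samples. RefSeq promoter sequence (build GRCh38.p14) was found for 6 of the 9 members, and the 250 bases before the start site are shown for ANGPTL4 and PGF because these genes had the higher values in the same 6 clones. In each, capitals mark the matches on either strand to a hypoxia response core (ACGTG or GCGTG), an AP-1 site (TGANTCA), a GC box (GGGCGG) or a TATA box (TATAAA). The ANGPTL4 window is chr19:8363905-8364154 on the plus strand, and the PGF window, the upstream one of 2 listed start sites, is chr14:74955765-74956014 on the minus strand, printed as the gene reads.
ANGPTL4: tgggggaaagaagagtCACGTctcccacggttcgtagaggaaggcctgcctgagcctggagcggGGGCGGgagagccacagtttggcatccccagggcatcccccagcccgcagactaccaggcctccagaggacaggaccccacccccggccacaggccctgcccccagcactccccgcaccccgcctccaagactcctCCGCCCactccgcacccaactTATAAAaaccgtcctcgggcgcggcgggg
PGF: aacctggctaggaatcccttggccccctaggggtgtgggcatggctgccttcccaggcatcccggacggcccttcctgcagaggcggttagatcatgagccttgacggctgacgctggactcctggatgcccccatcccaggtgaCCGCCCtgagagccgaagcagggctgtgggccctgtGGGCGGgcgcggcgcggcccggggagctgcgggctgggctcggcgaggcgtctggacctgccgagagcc

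The ANGPTL4 window held ACGTG once, on the opposite strand 234 bases before the start, GGGCGG at 186 and 50 bases and TATAAA at 29 bases. In the PGF window GGGCGG stood at 105 and 69 bases before the start, and no other searched motif was present. The window of the second PGF start site, which overlaps this one, held GCGTG on the opposite strand at 162 bases and GGGCGG at 236, 70 and 49 bases before that start. These letters are common. Of 35116 RefSeq promoter windows of 250 bases, 18.5% held the first hypoxia core and 32.2% the second, 6.57% the AP-1 site, 42.6% the GC box and 10.7% the TATA box. The first core and the TATA box stood together in 1 other member, THBS2, at 79 and 29 bases. The matches describe the sequence only, and binding was not measured.

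The deposited values, which are estimated counts, summed to 14772593 to 21486483 per sample, so that 3 counts, taken as the smallest detectable amount, corresponded to 0.14 to 0.203 CPM (counts scaled to a common library size). DIP2C, whose reads come mostly from outside the deleted bases and so measure its mRNA and not the deletion, was at 65.9 ± 7.03 CPM (SD, n = 2) in parental cells, at 17.4 and 22.8 CPM in the DIP2C-/- clones and at 33.6 to 56.3 CPM in the DIP2C+/- clones. Clone H9-A4 had the highest DIP2C level of the clones and stood apart at several genes below, so tests are given with all samples and without it. The choice to leave it out was made with earlier results of these data known. Where H9-A4 went against the other clones, smaller p-values without it follow in part from that choice. Of 8 epithelial and colon markers, only KRT8, KRT18 and CDX2 were above 5 CPM on average. EPCAM, VIL1, CDH1, KRT20 and KRT19 stayed at or below 3.78, 0.938, 0.718, 0.426 and 0.201 CPM. The 8 endothelial markers summed to 2.9 to 7.75 CPM over all samples, the 6 fibroblast and mural markers to 3.57 to 7.45 CPM and the 6 blood cell markers to 1.16 to 2.44 CPM, with none at 0 in all samples. In each comparison below, genes were tested with edgeR's quasi-likelihood test and called at a Benjamini-Hochberg adjusted p under 0.05 over all genes tested. Nothing in the labels or methods says that the 2 parental samples came from separate cultures, so p-values rest on the spread between these samples. In the fit of all groups that spread was shared, and it came mostly from the 5 DIP2C+/- clones, the largest group. H9-A4 therefore enters the errors of the DIP2C-/- comparison too.

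VEGFA was the most abundant member in parental RKO. Per kilobase of the canonical transcript, the parental level was 17.2 CPM for VEGFA, 9.85 for VEGFB, 6.39 for PGF and 2.88 for ANGPTL4. The other members lay far lower, at 0.339 CPM per kilobase for THBS2, 0.283 for ANGPT2, 0.0922 for ANGPT1, 0.0682 for THBS1 and 0.0352 for VEGFC. The 2 parental samples gave the same order for the first 6 of these genes, without overlap, while ANGPT1 and THBS1 overlapped. In the 6 knockout clones other than H9-A4, ANGPTL4 averaged 25.4 CPM per kilobase and VEGFA 12.9, although the ANGPTL4 mean rests on clone A9-A12 at 79.4.

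**Figure D1:**
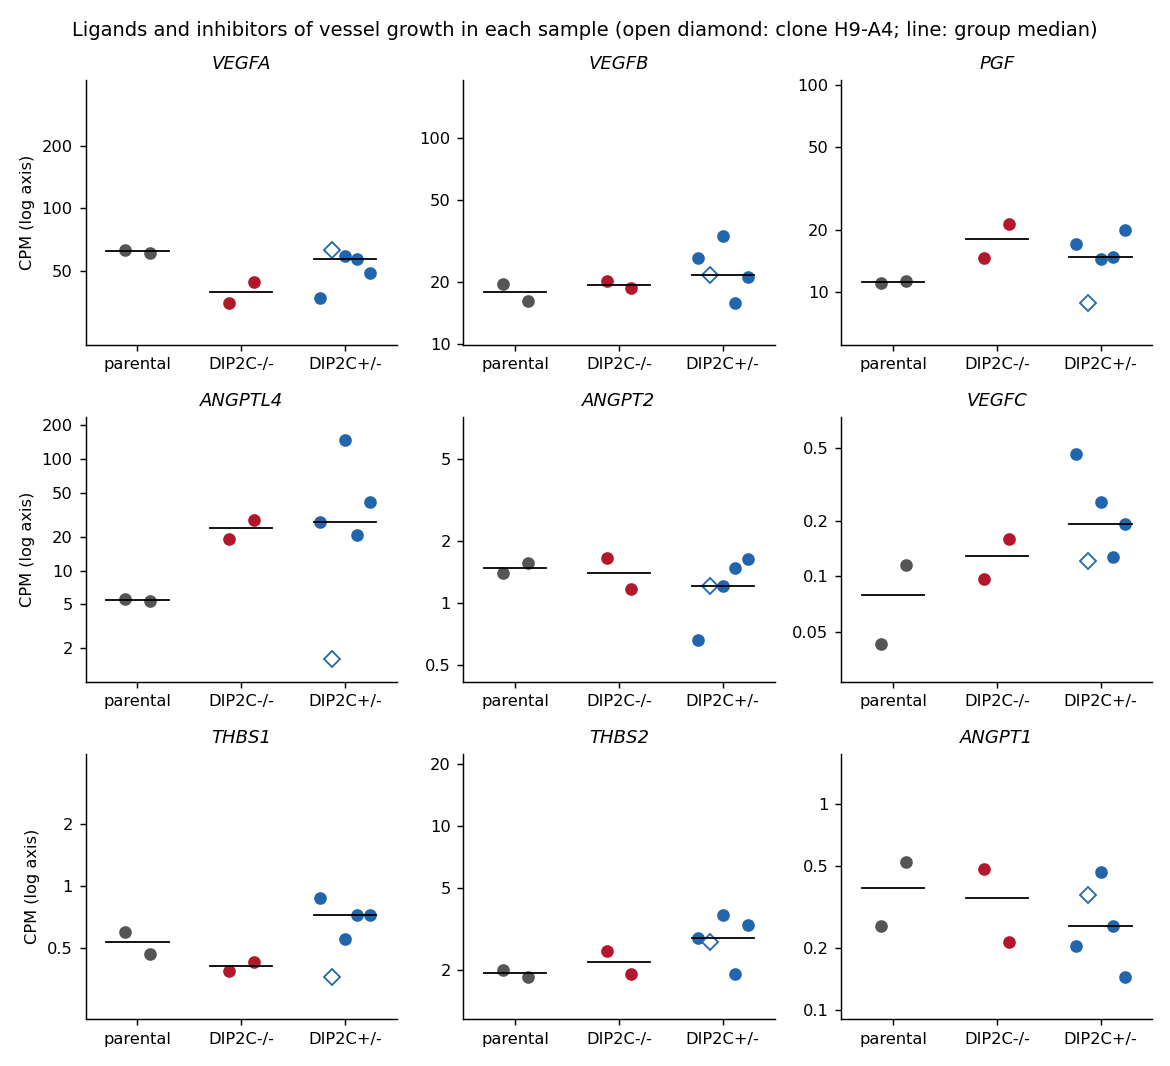
CPM on a log axis for the 9 members in each sample, by genotype; each point is 1 library, the open diamond is clone H9-A4 and lines are group medians. ANGPTL4 lay at 19.2 to 149 CPM in 6 knockout clones against 5.3 and 5.5 CPM in parental samples, with H9-A4 at 1.61 CPM.

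ANGPTL4 (chr19:8428173-8439254, plus strand, GRCh37) was at 5.5 and 5.3 CPM in the parental samples. In the DIP2C-/- clones it was at 19.2 CPM in E3 and 28.5 CPM in C10. Among the DIP2C+/- clones it was at 149 CPM in A9-A12, 41.2 in A6-C9, 27.0 in F6-A7 and 20.7 in G1-A5, but at 1.61 CPM in H9-A4. Thus 6 clones of both genotypes were above the parental samples and 1 clone was below them, and the DIP2C+/- clones spanned the DIP2C-/- values on both sides. The SD of its log2 CPM over the 9 samples was 1.9, larger than that of 99.1% of genes tested, against a median of 0.344 over all genes.

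As group means, the ANGPTL4 log2 fold change against parental was 2.15 (SE 1.3) in DIP2C-/- clones and 3.15 (SE 1.25) in DIP2C+/- clones, and neither was called (adjusted p = 0.513 and 0.403, edgeR). The average of all 7 clones was 2.86 above parental (SE 1.21, adjusted p = 0.347, edgeR). With H9-A4, the only clone below the parental samples at this gene, left out, ANGPTL4 was called. Its log2 fold change was then 3.46 in DIP2C+/- clones (SE 0.778, adjusted p = 0.0209, edgeR) and 3.02 in the average of the 6 remaining clones (SE 0.745, adjusted p = 0.0286, edgeR). In DIP2C-/- clones the value stayed at 2.15 with a smaller error (SE 0.795) and was not called (adjusted p = 0.168, edgeR). When only the parental and DIP2C-/- samples were fitted, the same difference was 2.13 (SE 0.238, adjusted p = 0.000647, edgeR), in a fit that called 12.6% of all genes and took its spread from 2 samples per group. In the fits of only the compared groups for DIP2C+/- against parental, against DIP2C-/- and for all clones against parental, 0 members were called, beside 0.0538%, 0.00655% and 0.161% of all genes. Leaving out A9-A12 lowered the DIP2C+/- value to 2.07 (SE 0.908, adjusted p = 0.542, edgeR).

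**Figure D2:**
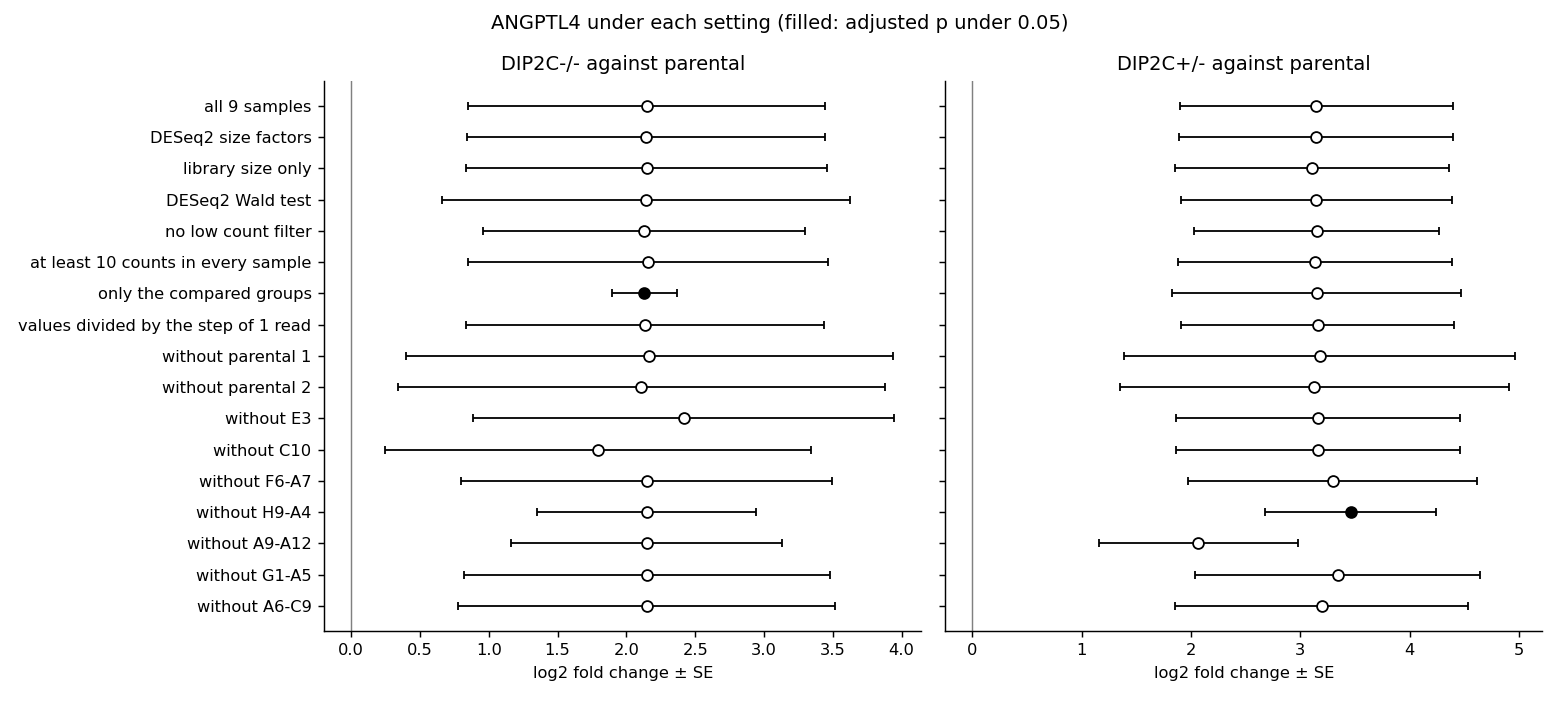
Log2 fold change of ANGPTL4 against parental, with its SE, for DIP2C-/- (left) and DIP2C+/- clones (right) under each fit; filled points passed an adjusted p under 0.05. The values were above 0 in every fit shown, and passed without H9-A4 on the right (3.46) and with only the compared groups on the left (2.13).

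The genotypes were not separated at ANGPTL4. DIP2C+/- clones were 1.0 above DIP2C-/- clones on the log2 scale (SE 1.07, adjusted p = 0.93, edgeR), and 1.31 without H9-A4 (SE 0.673, adjusted p = 0.723, edgeR). Without A9-A12 the difference was -0.08 (SE 0.803). A difference of this size was not detectable with these clones.

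PGF (chr14:75408537-75422329, minus strand, GRCh37), a ligand of FLT1, showed a smaller difference over the same clones. It was at 11.0 and 11.2 CPM in the parental samples, at 14.5 CPM in E3 and at 21.3 CPM in C10. The DIP2C+/- clones had 20 CPM in A6-C9, 17.0 in F6-A7, 14.8 in G1-A5 and 14.4 in A9-A12, and H9-A4 was again below both parental samples at 8.86 CPM. Its log2 fold change from parental was 0.68 in the DIP2C-/- clones (SE 0.35, adjusted p = 0.437, edgeR) and 0.43 in DIP2C+/- clones (SE 0.298, adjusted p = 0.597, edgeR), and 0.68 and 0.57 without H9-A4 (adjusted p = 0.169 and 0.157, edgeR). Over the 6 clones without H9-A4 it was 0.61 (SE 0.214, adjusted p = 0.109, edgeR), which was not called. An arrangement with 6 clones above and H9-A4 below both parental samples was found at 757 of the 15532 genes tested.

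VEGFA (chr6:43737921-43754224, plus strand, GRCh37) pointed the other way. It was at 63.1 and 61.1 CPM in the parental samples and at 35.0 and 43.8 CPM in the DIP2C-/- clones E3 and C10. In the DIP2C+/- clones it was at 36.8 CPM in F6-A7, 48.5 in A6-C9, 56.7 in G1-A5 and 59.0 in A9-A12, with H9-A4 at 63.0, between the parental samples. The 6 other clones were below both parental samples, A9-A12 by the least. Its log2 fold change from parental was -0.66 in the DIP2C-/- clones (SE 0.243, adjusted p = 0.348, edgeR), -0.23 in DIP2C+/- clones (SE 0.2, adjusted p = 0.686, edgeR) and -0.42 over the 6 clones without H9-A4 (SE 0.177, adjusted p = 0.18, edgeR). In the fit of parental and DIP2C-/- samples alone it was -0.67 and passed (SE 0.145, adjusted p = 0.0182, edgeR), where 12.6% of genes did. Without H9-A4 the values were -0.65 in DIP2C-/- and -0.3 in DIP2C+/- clones (adjusted p = 0.134 and 0.398, edgeR). DIP2C+/- clones were 0.42 above DIP2C-/- clones (SE 0.207, adjusted p = 0.878, edgeR), and 0.35 without H9-A4 (SE 0.195, adjusted p = 0.733, edgeR).

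VEGFB (chr11:64002056-64006736, plus strand, GRCh37) overlapped between all groups, at 16.1 to 19.5 CPM in parental samples, 18.6 and 20.2 CPM in DIP2C-/- clones and 15.9 to 33.4 CPM, median 21.6, in DIP2C+/- clones. Its highest value was in A9-A12, the clone with the highest ANGPTL4. The log2 fold change over all 7 clones was 0.33 (SE 0.251, adjusted p = 0.598, edgeR), and 0.33 without H9-A4 (adjusted p = 0.49, edgeR). VEGFC (chr4:177604689-177714076, minus strand, GRCh37) was at or under 3 counts in 5 of the 9 samples, with 7.58 counts in F6-A7 as its highest value, and was not tested.

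The angiopoietins were scarce. ANGPT2 was at 1.41 and 1.57 CPM in parental samples, 1.65 and 1.17 CPM in E3 and C10, and 0.667 (F6-A7) to 1.64 CPM (A6-C9) in DIP2C+/- clones, so the groups overlapped. Its log2 fold change over all 7 clones was -0.21 (SE 0.412, adjusted p = 0.874, edgeR), and -0.19 without H9-A4 (adjusted p = 0.867, edgeR). ANGPT2 lies within MCPH1 on the opposite strand, and since strand was not stated for the counting, reads of the 2 genes may not be told apart. ANGPT1 was at 0.145 to 0.524 CPM, at or under 3 counts in 1 sample, and did not pass the filter on low counts.

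The thrombospondins were scarce as well. THBS2 (chr6:169615875-169654145, minus strand, GRCh37) was at 2.0 and 1.86 CPM in the parental samples, 2.47 and 1.92 CPM in E3 and C10 and 1.92 to 3.72 CPM, median 2.88, in DIP2C+/- clones, with A9-A12 again highest. Its log2 fold change from parental was 0.17 in the DIP2C-/- clones (SE 0.446, adjusted p = 0.907, edgeR) and 0.59 in DIP2C+/- clones (SE 0.381, adjusted p = 0.579, edgeR), and 0.17 and 0.61 without H9-A4 (adjusted p = 0.899 and 0.439, edgeR). THBS1 (chr15:39873280-39891667, plus strand, GRCh37), the better known of the pair, was at 0.597 and 0.466 CPM in parental samples, 0.387 and 0.426 CPM in the DIP2C-/- clones and 0.362 (H9-A4) to 0.873 CPM (F6-A7) in DIP2C+/- clones. These levels were 6.01 to 14.7 counts per sample. The log2 fold change of THBS1 from parental was -0.42 in the DIP2C-/- clones (SE 0.608, adjusted p = 0.816, edgeR) and 0.24 in DIP2C+/- clones (SE 0.495, adjusted p = 0.89, edgeR). The log2 difference of DIP2C+/- from DIP2C-/- clones was 0.66 (SE 0.519, adjusted p = 0.908, edgeR), and 0.81 without H9-A4 (adjusted p = 0.774, edgeR). THBS1 overlaps FSIP1 on the opposite strand, with the same limit as for ANGPT2.

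As a group, 7 of the 9 members passed the filter on low counts, and 0 of these were called in any comparison by edgeR or by DESeq2's Wald test. At an unadjusted p under 0.05, 1 member passed for DIP2C-/- against parental (VEGFA), 1 for DIP2C+/- (ANGPTL4), 1 for all clones (ANGPTL4) and 0 for DIP2C+/- against DIP2C-/-. At that threshold 12.7%, 11.6%, 13.4% and 5.57% of all genes passed, in the same order, so 1 of 7 members was near the background. Over all genes tested, edgeR called 0.00644% for DIP2C-/-, 0.0966% for DIP2C+/-, 0.18% for all clones and 0.0% for DIP2C+/- against DIP2C-/-, so almost no gene of any kind was called. DESeq2 called 1.91%, 1.24%, 1.96% and 0.0386%, in the same order. Without H9-A4, 1 of 7 members, ANGPTL4, was called in DIP2C+/- clones and in the average of the clones, where 7.95% and 8.95% of all genes were called, and 0 members in DIP2C-/- clones, where 4.76% were. For DIP2C+/- against DIP2C-/- the count without H9-A4 was 0 of 7, beside 0.0% of all genes. The median log2 fold change of the tested members over all clones was 0.33, against 0.02 over all genes.

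None of the 7 tested members had all 7 knockout clones on 1 side of both parental samples, where 5.41% of all genes had them above and 5.54% below. Without H9-A4, ANGPTL4 and PGF had all 6 clones above, against 12.4% of genes, and VEGFA had all 6 below, against 11.5%. Clone by clone, a change of at least 4-fold from the parental mean was found only for ANGPTL4 among the tested members, with a log2 change of 4.76 in A9-A12, 2.91 in A6-C9, 2.38 in C10 and 2.3 in F6-A7. The share of all genes past 4-fold was 3.34%, 3.21%, 2.8% and 2.81% in these clones, in the same order. ANGPTL4 was short of the limit in E3 (1.81), G1-A5 (1.92) and, in the other direction, H9-A4 (-1.7), where 2.72%, 2.43% and 1.21% of genes were past it. Single clones have no replicate and were not tested.

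**Figure D3:**
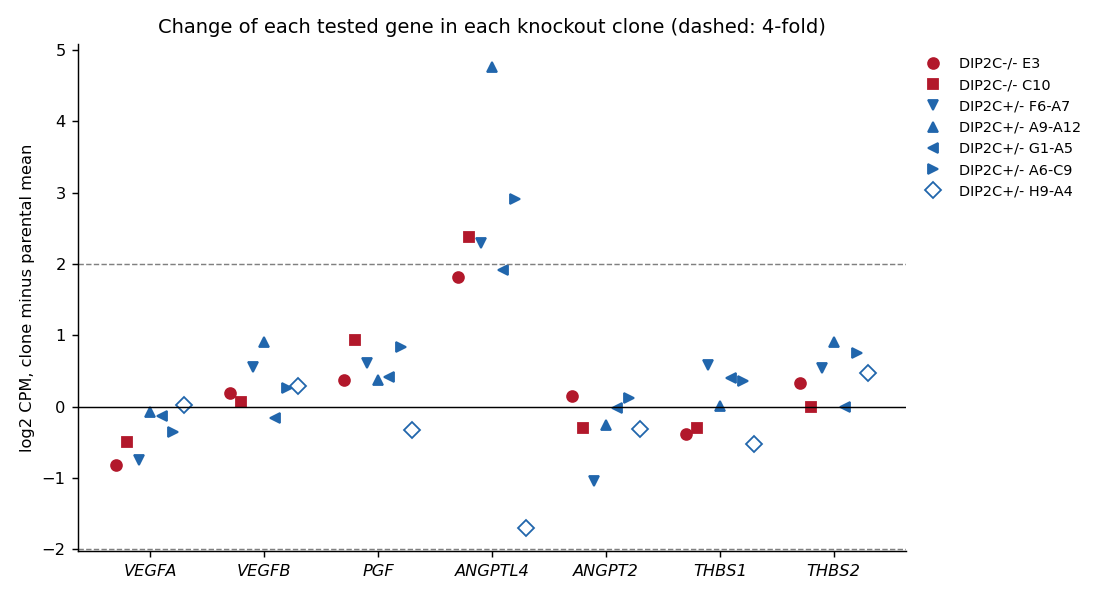
Log2 CPM of each knockout clone minus the parental mean, for the 7 members that passed the filter; dashed lines mark 4-fold and the open diamond is clone H9-A4. ANGPTL4 ranged from -1.7 in H9-A4 to 4.76 in A9-A12, while no other member passed 4-fold in any clone.

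The receptors of these ligands were mostly low, with FLT1 at 0.887 to 2.28 CPM, KDR at 0.213 to 1.02 CPM and FLT4 at 0.29 to 1.13 CPM over all samples. The co-receptors NRP1 and NRP2 were the exception, and they moved in opposite directions in the 6 clones without H9-A4. NRP1 was at 1.19 and 2.15 CPM in parental samples, 9.59 and 16.7 CPM in E3 and C10 and 7.14 to 22.3 CPM in the 4 remaining DIP2C+/- clones, with 1.05 CPM in H9-A4. NRP2 was at 39.4 and 47.1 CPM in parental samples, 12.2 and 12.6 CPM in E3 and C10, 12.1 to 14.5 CPM in the same 4 clones and 32.9 CPM in H9-A4. The 6 clones did not overlap the parental samples at either gene, and for NRP2 this held in all 7. Of all genes, 12.4% had these 6 clones above both parental samples and 11.5% had them below, and 5.54% had all 7 below.

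Without H9-A4, NRP1 rose by 2.98 on the log2 scale over the clones (SE 0.507, adjusted p = 0.00427, edgeR) and NRP2 fell by 1.75 (SE 0.145, adjusted p = 3.21e-05, edgeR). For DIP2C-/- against parental, also without H9-A4, NRP1 was at 2.97 (SE 0.554, adjusted p = 0.012, edgeR). NRP2 was at -1.8 (SE 0.197, adjusted p = 0.000494, edgeR). H9-A4 is not in that contrast. With H9-A4 kept, both values were the same but not called (SE 1.0 and 0.454, adjusted p = 0.337 and 0.296, edgeR). With all 9 samples neither gene was called by edgeR over the 7 clones (adjusted p = 0.304 and 0.17), while NRP2 was called by DESeq2. Of the 7 receptors and co-receptors tested with all samples, 0 were called by edgeR, 2 had an unadjusted p under 0.05 and 1, NRP2, was called by DESeq2, both in each genotype against parental and over all clones. For DIP2C+/- against DIP2C-/- these counts were all 0. Of all genes, 12.7%, 11.6% and 13.4% had such an unadjusted p for DIP2C-/-, DIP2C+/- and all clones against parental. DESeq2 called 1.91%, 1.24% and 1.96%, in the same order. Without H9-A4, NRP1 and NRP2 were the called genes of 6 receptors and co-receptors tested in each of these comparisons. Of all genes, edgeR then called 4.76%, 7.95% and 8.95%, in the same order.

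Among the other angiogenic ligands, the Notch ligand JAG1 and the matrix protein CTGF were lower in the 6 clones. JAG1 was at 273 and 355 CPM in parental samples, 13.1 and 20.8 CPM in E3 and C10, 11.4 to 20.9 CPM in 4 DIP2C+/- clones and 109 CPM in H9-A4. CTGF was at 29.2 and 29.5 CPM in parental samples, 0.63 and 0.693 CPM in E3 and C10, 0.464 to 2.6 CPM in 4 DIP2C+/- clones and 10.9 CPM in H9-A4. All 7 clones were below both parental samples at both genes. Of 16 such ligands tested, EFNA1 also had all 7 clones below and EFNB2 had all 7 above. Of all genes, 5.54% had all 7 clones below and 5.41% had them above. Without H9-A4, JAG1 fell by 4.27 on the log2 scale (SE 0.202, adjusted p = 5.89e-07, edgeR) and CTGF fell by 4.78 (SE 0.438, adjusted p = 6.6e-05, edgeR).

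With all 9 samples the JAG1 and CTGF changes over all clones were -3.48 and -3.83 and were not called (adjusted p = 0.0956 and 0.132, edgeR). The apelin gene APLN, a ligand for the receptor APLNR on endothelium and named here after its values were seen, was at 17.7 and 15.3 CPM in parental samples, 0.338 to 3.58 CPM in the 6 clones and 16.1 CPM in H9-A4, and fell by 3.14 without H9-A4 (SE 0.543, adjusted p = 0.00468, edgeR), against -2.07 with all samples (adjusted p = 0.376, edgeR). Of 16 such ligands tested of 20 in the files, 0 rose and 3 fell over the clones without H9-A4, where 8.95% of all genes were called. With all samples 0 were called, by edgeR or DESeq2. Over all clones 4 of these ligands had an unadjusted p under 0.05, beside 13.4% of all genes. The count was 7 for DIP2C-/- and 5 for DIP2C+/- against parental, beside 12.7% and 11.6% of all genes. The median log2 fold change of these ligands over all clones was -0.38. PDGFA and EFNB2, ligands of the PDGF and ephrin families, were at -0.93 and 1.06 in DIP2C-/- clones without H9-A4 and were not called (adjusted p = 0.0712 and 0.0814, edgeR), with the same values and an adjusted p of 0.318 for each with all samples.

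**Figure D4:**
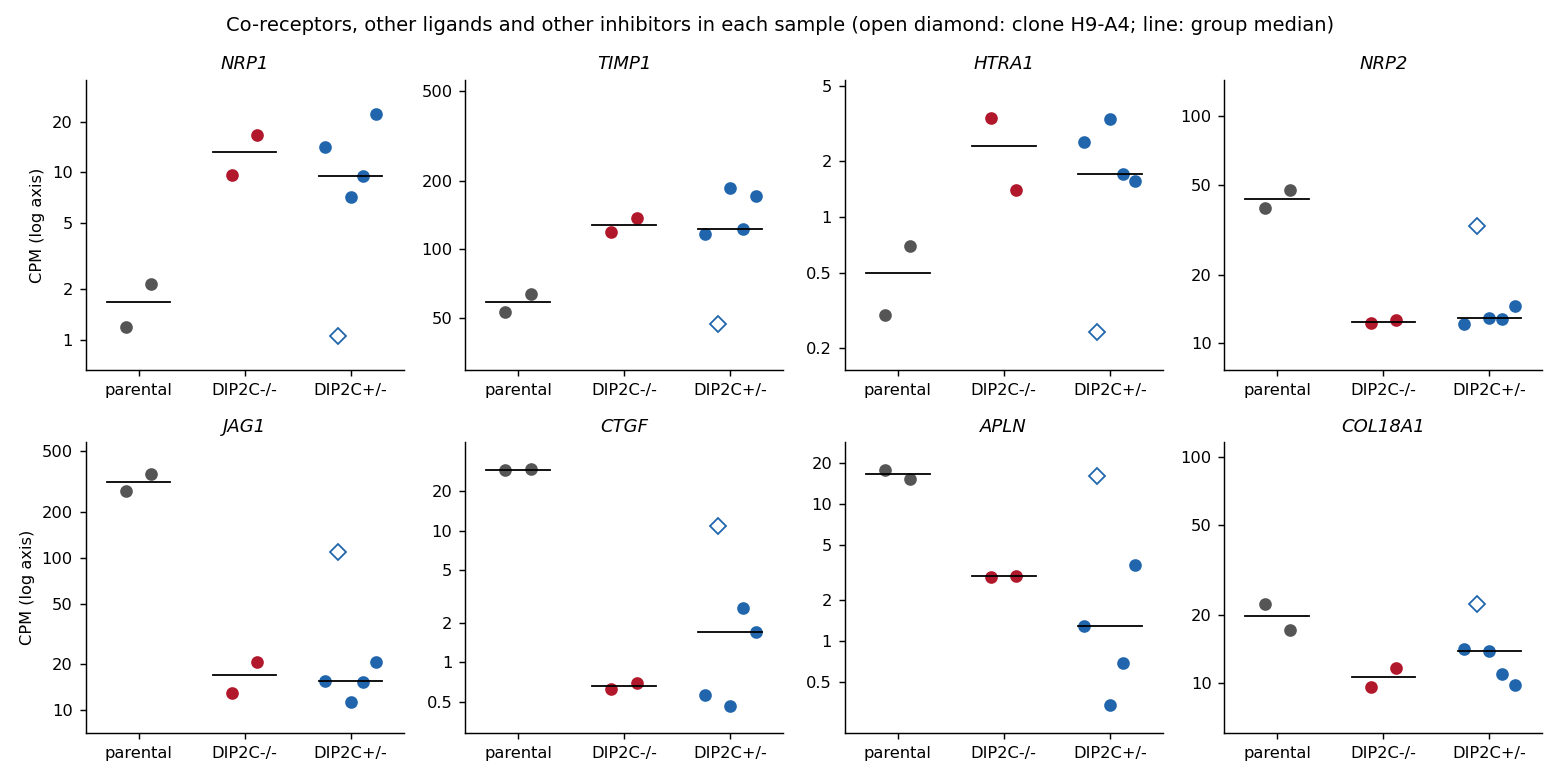
CPM on a log axis for 2 VEGF co-receptors (NRP1, NRP2), other ligands (JAG1, CTGF, APLN) and other inhibitors (TIMP1, HTRA1, COL18A1) in each sample; the open diamond is clone H9-A4 and lines are group medians. H9-A4 lay below both parental samples at NRP1, TIMP1 and HTRA1, between them at APLN, at 32.9 CPM for NRP2 against 12.1 to 14.5 in the other clones, and level with the higher parental sample at COL18A1.

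Among the other inhibitors, TIMP1, which blocks matrix metalloproteinases, was at 53.1 and 63.4 CPM in parental samples, 119 and 138 CPM in E3 and C10, 117 to 187 CPM in 4 DIP2C+/- clones and 46.8 CPM in H9-A4. It rose by 1.29 on the log2 scale without H9-A4 (SE 0.202, adjusted p = 0.00274, edgeR) and was at 1.15 with all samples (adjusted p = 0.318, edgeR). HTRA1, a secreted protease, rose by 2.25 (SE 0.617, adjusted p = 0.0452, edgeR) from 0.299 and 0.698 CPM without H9-A4, and was at 2.05 with all samples (adjusted p = 0.348, edgeR). COL18A1, the source of endostatin, fell by 0.75 (SE 0.206, adjusted p = 0.0443, edgeR) from 17.1 and 22.3 CPM without H9-A4, and was at -0.59 with all samples (adjusted p = 0.393, edgeR). These were the called genes of 10 inhibitors tested over the clones without H9-A4, where 8.95% of all genes were called. With all samples 0 were called by edgeR or DESeq2 over all clones, and 2 had an unadjusted p under 0.05, beside 13.4% of all genes. That count was 4 for DIP2C-/- and 1 for DIP2C+/- against parental, beside 12.7% and 11.6% of all genes.

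The thrombospondin receptors and relatives gave no calls. CD47 was at 41.1 and 41.9 CPM in parental samples and 32.2 (F6-A7) to 56.7 CPM (H9-A4) in the clones, and CD36 at most 1.07 CPM in the clones other than H9-A4. Of the 6 genes tested, 0 were called in any comparison with or without H9-A4, 0 were called by DESeq2 and 0 had an unadjusted p under 0.05. For the angiopoietin-like relatives of ANGPTL4, 5 of 7 in the files were tested, and 0 were called by either tool in any comparison. At an unadjusted p under 0.05 the count was 1, ANGPTL1, for DIP2C+/- against DIP2C-/- only (log2 difference -1.24, adjusted p = 0.878, edgeR). ANGPTL6, the most abundant of those named, was at 4.58 ± 1.3 CPM (SD, n = 2) in parental samples and 0.69 higher on the log2 scale over the 6 clones (SE 0.384, adjusted p = 0.327, edgeR), or 0.61 over all 7 (adjusted p = 0.526, edgeR).

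Hypoxia and PPAR pathway genes gave few calls, and whether either pathway bears on ANGPTL4 was not tested. Of 14 oxygen sensing and hypoxia-inducible genes tested, 0 were called with all samples by edgeR. Over all clones 1 had an unadjusted p under 0.05, beside 13.4% of all genes, and 1, P4HA1, was called by DESeq2, beside 1.96% of all genes. P4HA1, a collagen prolyl hydroxylase, was at 37.3 and 36.0 CPM in parental samples and 16.6 to 30.5 CPM in all 7 clones. It fell by 0.8 without H9-A4 (SE 0.201, adjusted p = 0.0311, edgeR) and was at -0.83 with all samples (adjusted p = 0.217, edgeR). CA9, a classical hypoxia target, was at 0.972 ± 0.107 CPM (SD, n = 2) in parental samples, 0.0967 to 0.976 CPM in 6 clones and 2.33 CPM in H9-A4. The median log2 fold change of the list over all clones was -0.06. Of 8 PPAR pathway genes tested, 0 were called with all samples by edgeR or DESeq2 and 0 had an unadjusted p under 0.05. CPT1A, the entry enzyme of mitochondrial fatty acid oxidation, fell by 0.7 without H9-A4 (SE 0.193, adjusted p = 0.0456, edgeR), and was at -0.51 with all samples (adjusted p = 0.485, edgeR). PDK4, another PPAR target, was at 1.0 without H9-A4 (SE 0.717, adjusted p = 0.466, edgeR) and 0.83 with all samples (adjusted p = 0.652, edgeR).

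The blood vessel development list that the study drew from these same samples holds 28 genes, of which ANGPTL4 is the only member described here. The list was chosen among genes past 4-fold in these libraries, so it is not independent evidence of the direction of ANGPTL4. Counts above the share of all genes follow from that choice as well, and the shares below cannot show enrichment. Of 27 tested without H9-A4, 9 rose and 8 fell over the clones, 8 rose and 4 fell in DIP2C-/- clones and 9 rose and 7 fell in DIP2C+/- clones. In the same order, 8.95%, 4.76% and 7.95% of all genes were called. With all samples 0 of the list were called by edgeR. Over all clones 19 had an unadjusted p under 0.05, where 13.4% of all genes did, and 3 were called by DESeq2, beside 1.96% of all genes. NRP1, JAG1 and CTGF, described above, are also on it. SMAD7, an inhibitor of TGF-beta signalling, fell by 2.04 without H9-A4 (SE 0.331, adjusted p = 0.00323, edgeR; -1.81 and 0.168 with all samples), from 9.71 ± 0.807 CPM (SD, n = 2) in parental samples. The growth factor FGF9 fell by 2.56 without H9-A4 (SE 0.614, adjusted p = 0.0251, edgeR; -2.73 and 0.178 with all samples), and its level of 0.161 CPM in H9-A4 was also below both parental samples, at 3.16 and 3.38 CPM.

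Genes whose levels followed the members most closely over the 9 samples are given as a description, since the samples share their parental line. Without H9-A4 the correlations of the same genes were 0.947 to 0.991. They were picked as the highest over all 9 samples, so high values in a part of these samples largely follow from that choice. For ANGPTL4 the genes were CAPN2, USP20 and FLYWCH2, with Pearson's r of log2 CPM of 0.985, 0.979 and 0.976 among 10645 genes compared. CAPN2, a calpain protease, was at 360 CPM on average in parental samples, 738 CPM in DIP2C-/- clones and 229 (H9-A4) to 1140 CPM in DIP2C+/- clones. For PGF they were FAM115A (0.992), ZFAT (0.969) and MFI2 (0.967), each lowest in H9-A4 among the DIP2C+/- clones. For VEGFA they were DNAJB6 (0.982), WDR47 (0.975) and ASAP1 (0.967). DNAJB6 was at 147 CPM on average in parental samples and 116 CPM in DIP2C-/- clones.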

How the data were processed

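RNA of 9 samples was sequenced on the Ion Proton system. Per the labels, reads were aligned to hg19 with TopHat2 2.0.4 and genes quantified with Cufflinks 2.2.1 (the study's methods name an earlier Cufflinks version). The values deposited by the authors are estimated counts per gene symbol, not whole numbers. How they were scaled is not given in the sources used here. Within a sample 97.8% to 98.5% of values up to 50 were whole multiples of 1 step (tolerance 0.02), and dividing by it implied 17134472 to 24864011 reads. Totals bound the precision: intervals are not printed, and the floor of 3 counts covers counting error only. Pairs of samples of 1 group gave chi-squares of 18 to 118 times their degrees of freedom over 12 pairs, so none counted as a repeat of another.

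Values were rounded to whole numbers, filtered with filterByExpr (15532 genes kept), scaled by TMM and fitted over all 9 samples with 1 coefficient per group in edgeR 4.0.16 (R 4.3.3). The common biological coefficient of variation was 0.298. Contrasts were DIP2C-/-, DIP2C+/- and the average of the 7 clones against parental, and DIP2C+/- against DIP2C-/-, by the quasi-likelihood F test. Log2 CPM used a prior count of 2. Gene positions and transcript lengths came from GENCODE 44 on GRCh37, and promoters from RefSeq on GRCh38.p14. The procedure was tested on simulated counts. Alternatives were DESeq2 1.42.0 (size factors and Wald test), library size only, no filter, at least 10 counts in every sample, only the compared groups, division by the step, a prior count of 0.5 for single clones, and each sample left out. All 9 members were named. Of every other list, up to 4 genes with the smallest p in each comparison were candidates to be named, and not all of these are described above. For likeness, 3 members with the largest SD and a mean of at least 5 CPM were each given 3 genes. The members, the lists and the leaving out of H9-A4 were chosen with earlier results of these data known, and the list counts and correlations without H9-A4 were added after the data were seen. The labels name no sequencing batch.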

Additional observations from a re-analysis of the deposited data

Results flagged for a closer look

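Among the 5 DIP2C+/- clones, 5 of 58 genes examined had a highest value whose distance to the next clone was large for the range of the group (Dixon's ratio). Chance flags about 1 in 20 independent groups. The 58 genes share the same 5 clones and are not independent, so the count cannot be judged against that rate. ANGPTL4 was at 149 CPM in A9-A12. In H9-A4, JAG1 was at 109 CPM, NRP2 at 32.9 CPM and CTGF at 10.9 CPM, each between the other DIP2C+/- clones and the parental samples. EPAS1, a hypoxia-inducible factor subunit, was at 39.6 CPM in F6-A7, against 12.3 to 15.4 CPM in the other DIP2C+/- clones. The cause was not tested for any of them.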

How the results depend on the processing

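The number of genes called depended on the fit more than the fold changes did. For DIP2C-/- against parental it was 1, and became 297 with DESeq2's Wald test, 3 with no filter, 0 with at least 10 counts in every sample and 1807 with only the compared groups. For DIP2C+/- against parental it was 15, and became 193 with the Wald test, 8 with at least 10 counts and 8 with only the compared groups. For DIP2C+/- against DIP2C-/- it was 0 (865 at an unadjusted p under 0.05), 6 with the Wald test and 1 with only the compared groups. For all clones it was 28, then 304 with the Wald test and 11 with at least 10 counts. Leaving out 1 sample gave 1 to 733, 1 to 1224, 0 to 3 and 1 to 1378 genes, the highest of the first, second and last without H9-A4; the causes were not tested. Member values past 4-fold numbered 4, and 3 to 4 with a sample left out. Leaving out 1 sample turned only these differences: VEGFB in DIP2C-/- (-0.016 to 0.251), ANGPT2 in DIP2C-/- (-0.315 to 0.12), THBS1 over all clones (-0.115 to 0.241), and, for DIP2C+/- against DIP2C-/-, PGF (-0.505 to 0.107), ANGPTL4 (-0.08 to 1.367) and ANGPT2 (-0.376 to 0.058). No paired analysis was possible because each clone was 1 library and the labels match no clone to a parental sample. Depth limits VEGFC and ANGPT1, which were near 3 counts, and 2 parental samples limit the comparisons with parental cells.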
